A study of Danio rerio with 2 samples.

Results

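The 5 genes described here encode myeloperoxidase and subunits of the phagocyte NADPH oxidase of zebrafish, namely mpx (ENSDARG00000019521), cybb (ENSDARG00000056615), cyba (ENSDARG00000018283), ncf1 (ENSDARG00000033735) and ncf4 (ENSDARG00000040812). They were chosen by symbol among the 25109 features of the expression tables, and each symbol stands for 1 feature. Their levels were followed across neutrophils ordered by the share of their transcripts that comes from the lysozyme gene lyz, across neutrophils with and without mmp9 transcripts, and across the cell classes of kidney marrow.

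Myeloperoxidase is a heme enzyme of neutrophil granules that turns hydrogen peroxide and chloride into hypochlorous acid, and mpx is a common marker of zebrafish neutrophils. The peroxide derives from superoxide, which the phagocyte NADPH oxidase makes at the plasma membrane and in phagosomes. In mammals its membrane core pairs the catalytic chain encoded by CYBB with the smaller chain encoded by CYBA, and cytosolic proteins, among them the NCF1 and NCF4 products, join that core together with the GTPase RAC2 when the cell is activated. Macrophages and B cells of mammals also carry this oxidase, while myeloperoxidase is mainly a product of the neutrophil and monocyte lineages.

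Droplet-based scRNA-seq was performed on 2 libraries of kidney marrow, the main blood-forming organ of fish, from the same 2 male zebrafish aged 6 months. Both fish were Tg(lysC:CFPNTR)/Tg(BACmmp9:Citrine-CAAX) double transgenics, in which the lysC promoter drives CFPNTR and regulatory elements of mmp9 drive a membrane-bound Citrine, so that all cells of both libraries come from animals carrying both reporters. The sorted library pooled LysC+ cells without (NO), with intermediate (INT) and with high (HI) Mmp9 reporter signal of both fish, and the WKM library pooled live cells from the whole kidney marrow of both animals, ungated for the reporters. Lipid-anchored barcodes (2 µM, 5 min) had been put on the marrow portions before the sort. Their counts were not analysed here, while the gate of single cells given further on is the study's own assignment, which rests on them. Each condition has 1 library and cells were not assigned to fish, so no test was run between groups, and the 95% intervals given cover counting error only.

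The sorted library held 15102 cells after quality control with 49531298 UMIs (unique molecular identifiers, each marking 1 captured transcript), and the WKM library held 8191 cells with 40709152 UMIs. By marker genes that exclude the 5 members, 99.5% of sorted cells and 60.2% of WKM cells passed the neutrophil gate, and 15.4% of WKM cells fitted no gate. Of the cell barcodes, 41 occurred in both libraries after quality control. Hemoglobin transcripts took 1.37 to 4.38% of the UMIs of neutrophil-gated WKM cells and at most 0.108% in the sorted bands. Levels are given as CPM, the UMIs of a gene divided by those of the group of cells and multiplied by 1000000. All 5 members passed the minimum of 20 UMIs in each comparison.

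All cells of the sorted library, 99.5% of them neutrophil-gated, were first divided by the share of their UMIs that comes from lyz. The under 2% band held 6578 cells with a median of 1667 UMIs, the 2 to 5% band 3045 cells with 2478, the 5 to 10% band 3714 cells with 3257 and the over 10% band 1765 cells with 7072. The lower the lyz share, the higher was the relative level of cybb, ncf1 and ncf4, while mpx peaked in between and ended almost where it began. Of the 5 members, 2 were at least 2-fold higher under 2% than above 10% and none was at least 2-fold lower, beside 27.9% of 10430 genes that were higher and 12.2% that were lower by that measure. The members' count is therefore to be read against a wide background, with a median log2 ratio of 0.44 over all genes.

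The catalytic subunit gene cybb changed most. Its level was 165 CPM above 10% lyz, 239 CPM at 5 to 10%, 333 CPM at 2 to 5% and 462 CPM under 2%, and no neighbouring intervals overlapped. The log2 ratio of the lowest over the highest lyz band was 1.49 (1.42 to 1.56), a 2.80-fold difference that exceeded the ratio of 85.3% of genes. The partner subunit cyba took another course, with 295 CPM above 10%, 477 CPM at 5 to 10%, 571 CPM at 2 to 5% and 551 CPM under 2%. Most of its difference lay between the 2 bands richest in lyz, where its log2 ratio was 0.70 (0.64 to 0.75), while the 2 bands poorest in lyz did not differ beyond counting error (log2 ratio -0.05, -0.10 to 0.00).

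Of the cytosolic subunits, ncf1, the organizer that in mammals is phosphorylated on activation, went from 2124 CPM above 10% through 3006 and 3815 CPM to 5155 CPM under 2%. Each step was larger than its counting interval, and the whole log2 ratio was 1.28 (1.26 to 1.30). The smaller change of ncf4, whose mammalian product binds a phosphoinositide of the phagosome membrane, led from 117 CPM through 140 and 156 CPM to 188 CPM, with a log2 ratio of 0.69 (0.60 to 0.79). By contrast, mpx stood at 2652 CPM above 10%, 3117 CPM at 5 to 10%, 3223 CPM at 2 to 5% and 2580 CPM under 2%. Its log2 ratio of -0.04 (-0.06 to -0.02) lay below the median of all genes, and 31.9% of genes had a smaller one. Its sign was not stable, since it was 0.21 in cells with at least 800 features and 0.20 with bands set under 1% and above 15%.

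**Figure D1:**
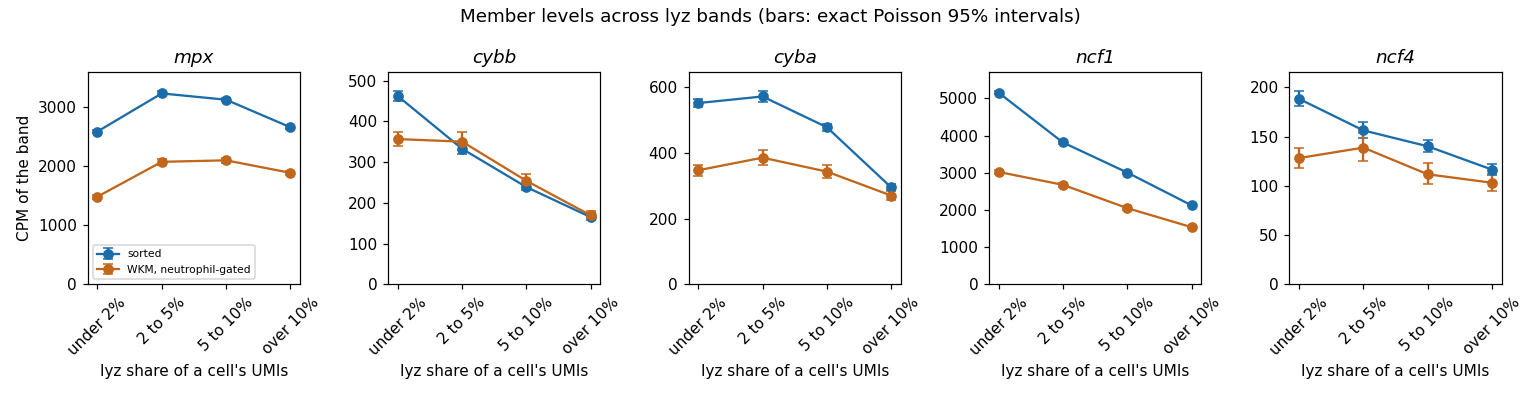
CPM of each member (vertical axis, from 0) against the lyz share of a cell's UMIs (horizontal axis, 4 bands) in the sorted library (blue) and in neutrophil-gated cells of the WKM library (orange), with exact Poisson 95% intervals. In both libraries cybb and ncf1 are lowest above 10% lyz, while mpx is highest in the middle bands, and mpx, cyba and ncf1 lie higher in the sorted library in every band.

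These values are relative to the RNA of the band, and the bands differ in RNA content. Counted as UMIs per cell, every member was lower under 2% than above 10%. Cells of the lyz-poor band held on average 0.877 UMIs of cybb against 1.24 in the lyz-rich band, 1.05 against 2.22 of cyba, 9.78 against 16.0 of ncf1, and 0.358 against 0.879 of ncf4. On this scale the log2 ratios ran from -0.50 for cybb to -2.03 for mpx. Leaving lyz itself out of the totals lowered the ratios of CPM by 0.19, to 1.30 for cybb, 1.09 for ncf1 and -0.23 for mpx.

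The same bands among neutrophil-gated WKM cells held 2246, 1035, 863 and 787 cells from low to high lyz. There cybb read 357 CPM under 2%, 350 CPM at 2 to 5%, 254 CPM at 5 to 10% and 169 CPM above 10%, with a log2 ratio of the extremes of 1.08 (0.96 to 1.19). For ncf1 the levels were 3023, 2676, 2049 and 1537 CPM in that order, with a log2 ratio of 0.98 (0.94 to 1.02). Thus 1 of the 5 members was at least 2-fold higher, beside 23.3% of 9144 genes, and none was at least 2-fold lower, beside 5.7%. The remaining members stayed under or near the median of 0.47, with log2 ratios of 0.36 (0.26 to 0.47) for cyba, 0.31 (0.15 to 0.48) for ncf4 and -0.35 (-0.39 to -0.30) for mpx. For mpx, 1479 CPM under 2% stood against 2068, 2093 and 1882 CPM in the richer bands. Both cyba (-0.11) and ncf4 (-0.15) fell below 0 once the ratios were centred on the median of all genes.

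The lyz-poor WKM band was not free of other cells. Lymphocyte markers summed to 231 CPM for the T or NK list and 164 CPM for the B cell list under 2% lyz, against at most 55.2 and 16.5 CPM in the richer bands. In the sorted library the T or NK list also reached 132 CPM under 2% and 41.2 CPM above 10% lyz, with 0.801 CPM for the B cell list under 2%. Of 14 measured T or NK markers 7 or 8 were at 0 in each sorted band. The leading gene was ccr9a under 2% (62.6 CPM), and runx3 in each richer band, with 48.6 CPM at 2 to 5% and 27.5 CPM above 10% lyz. How much of the T or NK sums came from lymphocytes was not tested. When WKM cells with under 1% of UMIs from the neutrophil gene lect2l were left out, 1934 cells remained under 2% lyz. The log2 ratios were then 1.39 for cybb, 1.31 for ncf1, 0.64 for cyba, 0.63 for ncf4 and 0.0020 for mpx, each closer to its value in the sorted library. The sorted cells were not cut in this way. Whether the cut removed other cells or neutrophils low in lect2l was not tested. Macrophage transcripts other than ctss2.1 were scarce in the sorted bands. Of 11 monocyte or macrophage markers 7 or 8 were at 0 in each sorted band. Nearly all of the list was ctss2.1, which neutrophils also carried, with 565 CPM above 10% and 1647 CPM under 2% lyz. Apart from ctss2.1, the list summed to 1.06 to 5.21 CPM in these bands. The same genes summed to 32.5 CPM in the lyz-poor WKM band. In macrophage-gated WKM cells they summed to 2356 CPM, and to 2602 CPM with ctss2.1 included. In this gate c1qb led with 871 CPM, while mpeg1.1 was at 15.5 CPM and csf1ra at 5.30 CPM. The level of mpeg1.1 was higher in the B cell gate (62.3 CPM) and the T or NK gate (21.7 CPM), both without csf1ra UMIs.

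Neutrophils of the same lyz band were next compared by their mmp9 transcripts. The gene mmp9 encodes a protease stored in the late granules of maturing neutrophils and drives the reporter used for the sort. Cells with at least 3 mmp9 UMIs were set against cells with none. In the lyz-poor band of the sorted library, 2369 cells with a median of 2223 UMIs stood against 2745 cells with a median of 1540. Here the members parted in a way the lyz bands did not show: in CPM, mpx, cyba and ncf1 were higher with mmp9, ncf4 was lower, and cybb was nearly level.

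For mpx, 1829 CPM without mmp9 became 2254 CPM with 1 or 2 mmp9 UMIs and 3347 CPM with 3 or more, a log2 ratio of the extremes of 0.87 (0.83 to 0.91). For cyba, 386 CPM became 478 and then 720 CPM (log2 ratio 0.90, 0.82 to 0.98). For ncf1, 3820 CPM became 4982 and then 6333 CPM (log2 ratio 0.73, 0.70 to 0.76). These ratios exceeded those of 92.6%, 92.9% and 91.1% of genes, whose median was -0.18. None of the 5 members was 2-fold higher or lower, beside 6.11% of 8974 genes that were higher and 10.6% that were lower.

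The other pair of subunits did not follow. The level of cybb was 449 CPM without mmp9, 468 CPM with 1 or 2 UMIs and 470 CPM with 3 or more, with a log2 ratio of 0.07 (-0.02 to 0.15) whose interval includes 0. That of ncf4 was 215, 186 and 168 CPM, with a log2 ratio of -0.36 (-0.49 to -0.23). Set against the median of -0.18 over all genes, the interval of cybb lay above it and that of ncf4 below it. The ratio of cybb exceeded that of 68.0% of genes and the ratio of ncf4 that of 38.1%, both nearer the middle than the other 3 members. So the 2 membrane subunits, which pair in the mammalian protein, differed from each other by more than their intervals, as did the 2 cytosolic subunits. Per cell, without scaling, ncf4 was slightly higher with mmp9 (log2 ratio 0.14) and cybb more so (0.56), beside 1.37 for mpx, 1.39 for cyba and 1.22 for ncf1.

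Cells with more UMIs have more chances of showing mmp9. With every cell thinned to 1000 UMIs and mmp9 then read at 2 or more against 0, the log2 ratios were 0.69 for mpx, 0.67 for cyba and 0.58 for ncf1. Between the groups compared, lect2l did not differ (log2 ratio 0.00, -0.01 to 0.01), hemoglobin took 0.049% of UMIs with mmp9 and 0.236% without, and macrophage markers other than ctss2.1 summed to 3.65 and 6.22 CPM. Within this band the groups also differed in lyz, which took 0.758% of UMIs with mmp9 and 0.982% without. The part of these differences in the result was not tested.

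The division of the members recurred at 2 to 5% lyz in the sorted library and in part above that. At 2 to 5% lyz, 663 cells with at least 3 mmp9 UMIs and 1645 cells without gave log2 ratios of 0.44 (0.40 to 0.48) for mpx, 0.57 (0.48 to 0.67) for cyba and 0.67 (0.63 to 0.71) for ncf1, against 0.01 (-0.12 to 0.14) for cybb and -0.39 (-0.59 to -0.20) for ncf4. At 5 to 10% lyz, with 586 and 1956 cells, mpx was down to 0.23 (0.20 to 0.27), whereas cyba and ncf1 kept 0.56 (0.47 to 0.66) and 0.59 (0.55 to 0.62). There the intervals of cybb (0.08, -0.05 to 0.22) and of ncf4 (-0.09, -0.27 to 0.10) included 0, and ncf4 was at 0.33 after thinning. The mpx ratio at 5 to 10% was not robust, since it was -0.044 per cell and 0.042 after thinning. Above 10% lyz only 57 cells had 3 mmp9 UMIs or more, and cyba (0.45, 0.24 to 0.65), ncf1 (0.36, 0.28 to 0.44) and mpx (0.24, 0.17 to 0.31) were again above 0, while ncf4 was below (-0.44, -0.88 to -0.02). The mpx ratio was thus largest in the lyz-poor band.

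**Figure D2:**
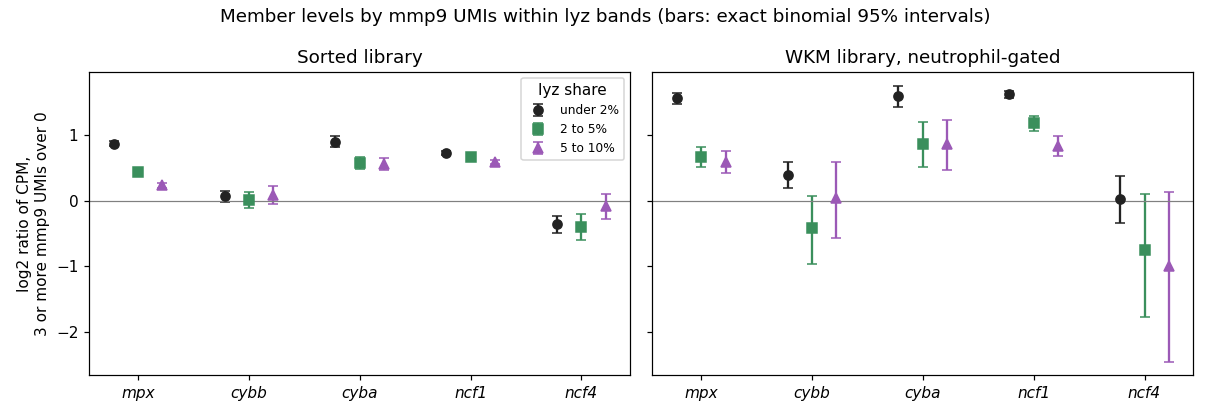
Log2 ratio of CPM in cells with at least 3 mmp9 UMIs over cells with none (vertical axis) for each member (horizontal axis) in the lyz bands under 2% (circles), 2 to 5% (squares) and 5 to 10% (triangles), with exact binomial 95% intervals, in the sorted library (left) and in neutrophil-gated WKM cells (right). In each of these bands mpx, cyba and ncf1 lie above 0 in both libraries, and the interval of cybb includes 0 in all of them except the lyz-poor WKM band. The WKM points at 2 to 5% and 5 to 10% lyz rest on only 38 and 17 cells with at least 3 mmp9 UMIs.

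In the WKM library 232 lyz-poor cells had at least 3 mmp9 UMIs and 1703 had none, and the differences were larger. The level of mpx was 1090 CPM without and 3221 CPM with mmp9 (log2 ratio 1.56, 1.48 to 1.64), that of cyba 260 and 784 CPM (1.59, 1.43 to 1.76) and that of ncf1 2188 and 6751 CPM (1.63, 1.57 to 1.68). Here cybb was also higher (0.39, 0.19 to 0.59), and ncf4 was level within its interval (0.03, -0.34 to 0.38). With mmp9, these levels came close to those of the sorted library, while the levels without it were lower than there. Accordingly 3 of the 5 members were at least 2-fold higher, beside 8.57% of 7612 genes, and none was at least 2-fold lower, beside 18.7%. The cells without mmp9 also had more of the T or NK list, 281 CPM against 61.0 CPM with mmp9, and of the B cell list, 210 against 8.72 CPM. In the lyz-poor band of the sorted library the T or NK list differed too, with 161 CPM without and 91.4 CPM with mmp9. There 8 of 14 markers were at 0 in both groups, and single genes led, runx3 with 79.5 CPM without mmp9 and ccr9a with 40.9 CPM with it. How much of these sums came from lymphocytes was not tested. Among lyz-poor WKM cells with at least 1% of UMIs from lect2l, 220 against 1424, the log2 ratios were 1.12 for mpx, 1.29 for cyba and 1.19 for ncf1, with -0.03 for cybb and -0.38 for ncf4.

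For 1900 of the sorted cells the sort gate was known, from the first part in barcode order of the cells in the source data. The gates differed as sorted, with 259, 1123 and 2423 CPM of mmp9 in NO, INT and HI cells and 0.764, 5.06 and 20.3 CPM of the reporter transcript Citrine. They also differed in lyz, which took 8.19% of the UMIs of the 1197 NO cells, 2.06% of the 403 INT cells and 0.922% of the 300 HI cells, so the gates combine both axes described above. None of the 5 members was 2-fold higher or lower in HI than in NO cells, beside 17.9% of 7945 genes that were higher and 14.4% that were lower.

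From NO through INT to HI, ncf1 went from 2902 to 4741 and 5500 CPM, and cybb from 236 to 375 and 423 CPM. The log2 ratios of HI over NO were 0.92 (0.87 to 0.98) for ncf1 and 0.84 (0.63 to 1.04) for cybb, compared with a median of 0.23 over all genes. For ncf4 the levels were 134, 189 and 211 CPM with a ratio of 0.66 (0.36 to 0.94), and for cyba 422, 544 and 567 CPM with a ratio of 0.43 (0.25 to 0.60). The order of mpx was different, with 3034 CPM in NO, 2489 CPM in INT and 2717 CPM in HI cells, and a ratio of -0.16 (-0.24 to -0.08). Between INT and HI cells the intervals of cybb, cyba and ncf4 included 0, while ncf1 (0.21, 0.14 to 0.28) and mpx (0.13, 0.03 to 0.22) were higher in HI. Per cell, all 5 members were lower in HI than in NO cells, where the median was 3490 UMIs against 1594 in HI cells. By at least 2-fold, 1 member was lower per cell, beside 4161 of 7945 genes.

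**Figure D3:**
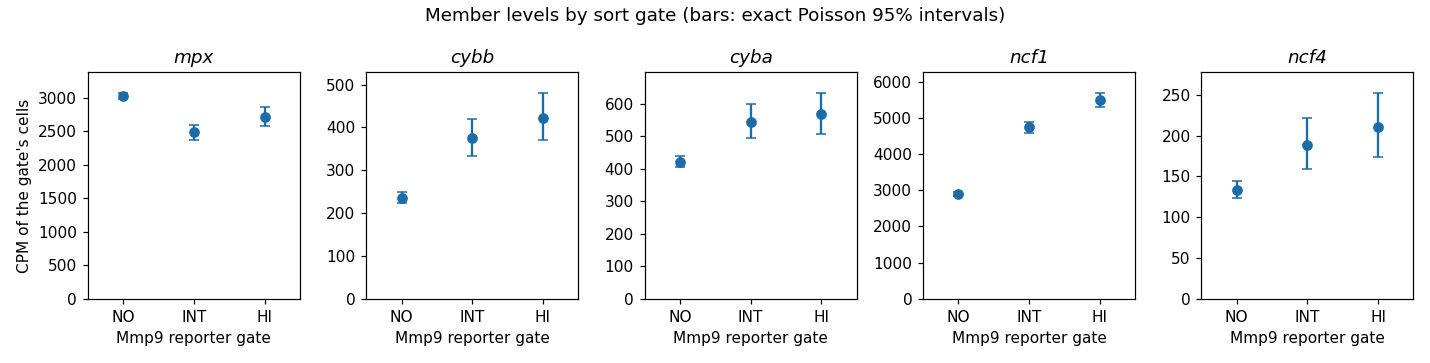
CPM of each member (vertical axis, from 0) in cells of the Mmp9 NO, INT and HI gates (horizontal axis) of the sorted library, with exact Poisson 95% intervals. The levels of cybb, cyba, ncf1 and ncf4 are lowest in NO cells, and mpx is highest there.

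Between the libraries, bands set by the same lyz limits differed for some members more than for others. Under 2% lyz the sorted library was above the WKM library for each member, with log2 ratios of 0.80 (0.77 to 0.84) for mpx, 0.77 (0.74 to 0.80) for ncf1, 0.67 (0.59 to 0.75) for cyba, 0.56 (0.43 to 0.68) for ncf4 and 0.37 (0.30 to 0.45) for cybb. None of the 5 was 2-fold higher or lower, beside 8.34% of 10096 genes that were higher and 8.05% that were lower, and the median was 0.17. In the 3 richer bands cybb had ratios of -0.07, -0.09 and -0.04, with intervals that include 0. These intervals lay below the medians over all genes there, 0.16, 0.19 and 0.19. By contrast mpx stayed between 0.49 and 0.64 and ncf1 between 0.47 and 0.55. The mmp9-rich cells made up 36.0% of the lyz-poor band in the sorted library and 10.3% in the WKM library. Library, sort and the hemoglobin share cannot be told apart here.

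Across the cell classes of the WKM library the membrane and cytosolic subunits were shared between neutrophils and macrophages, while mpx was not. The neutrophil gate held 4931 cells with a median of 2404 UMIs, the monocyte or macrophage gate 496 cells with 9812, the erythroid gate 1135 cells with 5636, the gate for hematopoietic stem and progenitor cells (HSPC) 241 cells with 6341, the T or NK gate 72 cells with 2217 and the B cell gate 45 cells with 2749. With 6 cells, the thrombocyte gate was left out. In neutrophils 1844 CPM of mpx stood against 30.2 CPM (25.7 to 35.4) in macrophages, a 61.0-fold difference. Its log2 ratio of 5.93 was 5.05 when 2 markers sufficed for a class and 6.34 with lyz under 1% in the other classes. By contrast cybb (274 and 234 CPM), cyba (328 and 264 CPM) and ncf4 (118 and 104 CPM) differed between these classes by log2 ratios of only 0.22 (0.13 to 0.32), 0.32 (0.23 to 0.40) and 0.19 (0.05 to 0.33). The cytosolic ncf1 was in between, with 2280 CPM in neutrophils, 413 CPM in macrophages and a log2 ratio of 2.46 (2.40 to 2.53). Of the 5 members, 2 were at least 2-fold higher in neutrophils, beside 16.7% of 10583 genes, and none was at least 2-fold lower, beside 15.7%. Per cell, macrophages held more cybb, 2.41 UMIs against 0.923 in neutrophils, and also more cyba and ncf4.

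After thinning every cell to 1000 UMIs, 76.6% of neutrophils and 2.82% of macrophages had an mpx UMI. The shares for cybb were 28.0% and 23.4%, those for cyba 28.1% and 21.0%, and those for ncf4 12.1% and 8.67%. The macrophage share of mpx was also below that of erythroid cells, 18.9%, whose mpx level moved with the gate as given below.

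**Figure D4:**
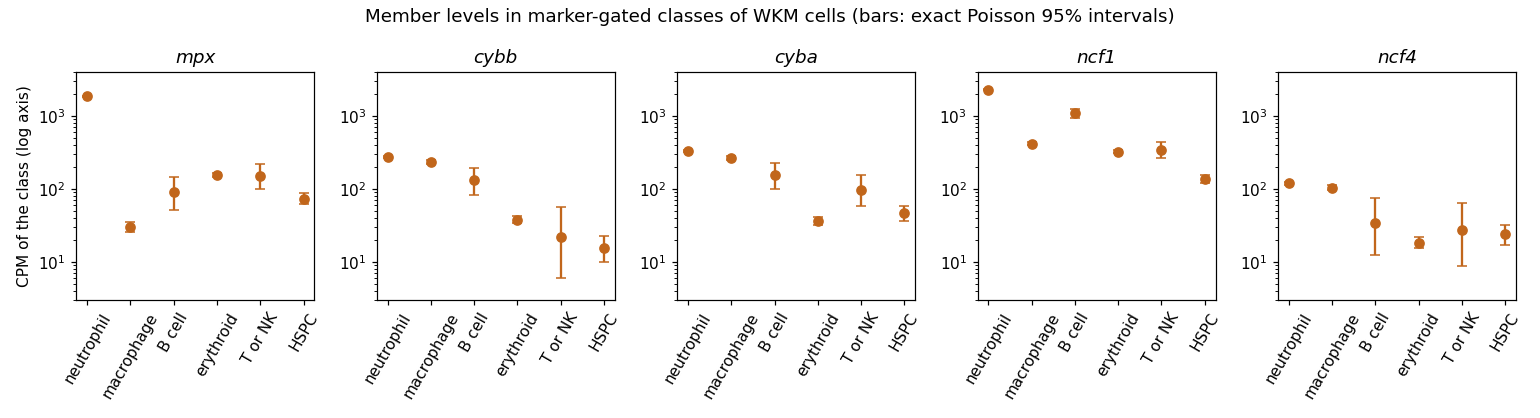
CPM of each member (vertical axis, log scale) in 6 marker-gated classes of WKM cells (horizontal axis), with exact Poisson 95% intervals. Neutrophils and macrophages lie close together for cybb, cyba and ncf4 and far apart for mpx, and B cells have the next level of ncf1 after neutrophils.

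Transcripts of burst cells enter other droplets, and neutrophils make up most of this marrow, so each member was also expressed per 1000 UMIs of lect2l, a secreted neutrophil protein gene. The neutrophil range given here spans only the value of all neutrophil-gated cells and that of their lyz-poor band. Other neutrophil groups, such as the richer lyz bands or cells split by mmp9, were not expressed this way. Their values may lie outside it, so a class above this range need not exceed every neutrophil group. For mpx this range was 40.9 to 66.4. Macrophages had 49.2 (41.5 to 57.8), B cells 38.9 (22.0 to 64.0), erythroid cells 57.8 (54.3 to 61.4), HSPC 69.4 (57.3 to 83.2) and T or NK cells 91.5 (59.8 to 135), and each of these intervals meets the neutrophil range. The HSPC and T or NK values themselves lay above that range. For the low levels of mpx in these classes, free RNA, mixed droplets and a low level of their own cannot be told apart by this ratio.

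The oxidase subunits of macrophages stood far outside that range. Against neutrophil values of 6.07 to 16.0, cybb reached 381 (356 to 407) in macrophages, and cyba reached 429 (402 to 457) against 7.28 to 15.6. For ncf1 the macrophage value was 672 (635 to 710) against 50.6 to 136, and for ncf4 it was 169 (154 to 185) against 2.63 to 5.76. Erythroid cells gave 14.2 for cybb, 13.5 for cyba and 121 for ncf1, all within the neutrophil range, and 6.87 (5.73 to 8.16) for ncf4, whose interval meets it. The levels in erythroid cells also moved with the gate. The log2 ratios of neutrophils over erythroid cells were 3.58 for mpx, 2.86 for cybb and 2.82 for ncf1, against 1.63, 1.05 and 1.06 when 2 markers sufficed and 4.86, 4.10 and 4.17 when 4 were required. Whether droplets with RNA of both cell types set these levels was not tested.

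The lymphoid and progenitor gates divided the members. B cells, with 45 cells only, had 465 UMIs of ncf1 per 1000 of lect2l (389 to 553), 56.0 of cybb (35.1 to 85.1) and 65.7 of cyba (42.8 to 97.0), all above the neutrophil range, and their ncf1 level was 1082 CPM (934 to 1246). With 14.6 of ncf4 (5.33 to 32.0) on 6 UMIs, that subunit had an interval that reaches the neutrophil range. T or NK cells were above the range for ncf1 (206, 154 to 271) and cyba (58.8, 34.4 to 94.6), while the intervals of cybb (13.1, 3.54 to 33.8) on 4 UMIs and of ncf4 (16.3, 5.27 to 38.5) met it. In HSPC, cybb (14.5) and ncf1 (128) were within the neutrophil range, whereas cyba (43.6, 34.3 to 54.7) and ncf4 (22.4, 15.9 to 30.6) exceeded it. This ratio is a gauge with limits of its own, because lyz per 1000 lect2l UMIs ranged from 427 to 931 in the other classes, within the 295 to 1504 of neutrophils.

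**Figure D5:**
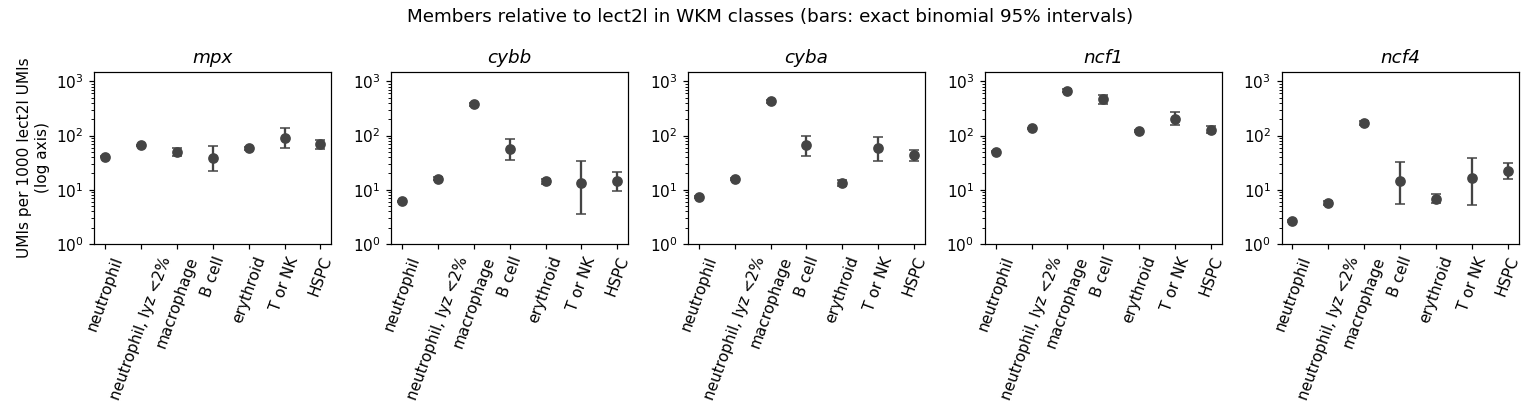
UMIs of each member per 1000 UMIs of lect2l (vertical axis, log scale) in all neutrophil-gated WKM cells, their band under 2% lyz and 5 other classes (horizontal axis), with exact binomial 95% intervals. For mpx the intervals of all other classes meet the range between the neutrophil values, and macrophages stand above that range for cybb, cyba, ncf1 and ncf4.

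Compared with neutrophils, each of the 5 members was at least 2-fold lower in erythroid cells, HSPC, T or NK cells and B cells, beside 43.2%, 27.9%, 33.8% and 36.5% of genes that were so in these comparisons. The smallest of these differences were those of the B cells, where cybb (130 CPM) and ncf1 had log2 ratios of neutrophils over B cells of 1.07 (0.48 to 1.73) and 1.08 (0.87 to 1.29), and cyba stood at 153 CPM (101 to 222). HSPC had the lowest levels of cybb, 15.4 CPM (10.1 to 22.6), and of ncf1, 136 CPM (119 to 154), both of which moved with the gate. The log2 ratio of neutrophils over HSPC was 4.15 for cybb, with 2.68 for 2 markers and 6.31 for 4, and 4.07 for ncf1, with 2.74 and 5.39. T or NK cells did not differ from HSPC in cybb beyond counting error (21.7 CPM, 5.91 to 55.5). In erythroid cells cyba was at 35.8 CPM and ncf4 at 18.3 CPM, but hemoglobin took 46.1% of their UMIs. With hemoglobin left out of the totals, these were 66.5 CPM (58.5 to 75.2) and 33.9 CPM (28.3 to 40.3), against 46.8 CPM (37.0 to 58.4) and 24.0 CPM (17.2 to 32.7) in HSPC.

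The lyz-richest neutrophil-gated WKM cells all carried cpa5, a carboxypeptidase gene, and were split by acp5a, an acid phosphatase gene. Both genes were listed here as eosinophil or mast cell markers, a list that excluded no cells from the neutrophil gate. The 197 cells with an acp5a UMI had less mpx (log2 ratio -0.28, -0.35 to -0.21), cyba (-0.46, -0.66 to -0.27) and ncf1 (-0.37, -0.45 to -0.29) than the 590 cells without, and cybb (0.01, -0.22 to 0.23) and ncf4 (-0.02, -0.32 to 0.26) did not differ beyond counting error. No member was 2-fold higher or lower, beside 1.34% and 4.72% of 7167 genes.

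Over 12 points, the 8 lyz bands and the 4 other classes with at least 50 cells, the profiles of the members were compared by Pearson's r of log2(CPM + 10). These points share libraries and the free RNA of neutrophils, and the r values are descriptions only. Of the members, cyba and ncf4 were closest to each other (r = 0.98), followed by cybb and ncf4 (0.96) and by cybb and cyba (0.93). The profile of mpx was nearer to that of ncf1 (0.92) than to that of cybb (0.69). Many other genes were nearer than members. By likeness, ncf4 ranked 12 for cyba, cyba ranked 104 for cybb, and ncf1 and cybb ranked 99 and 853 for mpx. Among 3667 other genes, the profile most like that of mpx was prkcda (0.99), a gene of a protein kinase C that in mammals phosphorylates the ncf1 product, followed by hyal3 and BX908782.2. The nearest genes were mapk11, si:dkey-102g19.3 and s100a10b for cybb, elovl1b, zgc:56525 and babam2 for cyba, and rab11ba, sla1a and si:ch211-284o19.8 for ncf1. For ncf4 they were pgd, which encodes an enzyme that yields NADPH, the substrate of the oxidase, then sdr16c5b and rab1ab.

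Other genes of the oxidase and of its activation were taken from a list of 12, of which 11 were used. Between the lyz bands of the sorted library 2 of 10 measured genes were at least 2-fold higher under 2% and 2 were lower, beside 27.9% and 12.2% of all genes, with a median log2 ratio of 0.43. The voltage-gated proton channel gene hvcn1, which in mammals balances the charge moved by the oxidase, was at 47.3 CPM under 2% and 8.56 CPM above 10% lyz, and the GTPase gene rac2 at 1449 and 955 CPM. Of the kinase genes, prkcdb was higher under 2% (2.02, 1.81 to 2.24) and prkcba lower (-1.88, -2.33 to -1.46), and prkcda separated neutrophils (326 CPM) from macrophages (7.66 CPM) much as mpx did. The related oxidase genes nox1, nox5, duox, noxo1a, noxo1b and noxa1 had at most 5 UMIs in a library, with 0 for nox5 and duox in both, so among the NOX catalytic genes looked at only cybb was at a measurable level in these libraries.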

How the data were processed

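Both libraries were made with 10x Genomics 3′ chemistry v3.1. The authors counted reads with Cell Ranger 3.1.0 against GRCz11 extended by Citrine and CFPNTR, and deposited unnormalized UMI counts for each gene and barcode (Seurat 4.0.2, also named in the submitters' processing notes, came later). Counting at the 3′ end does not scale with transcript length. Here, barcodes were kept from 500 features upward and below 10% of mitochondrial counts, and doublets called by Scrublet (scanpy 1.11.5, expected rate 10%) were removed, 1797 sorted and 122 WKM cells. Cells were gated by at least 3 detected markers of 1 class and fewer than 3 of every other class. For classes other than neutrophils, neutrophil markers were not counted and under 2% lyz was required. Cells of those classes could therefore carry 3 or more neutrophil markers. Eosinophil or mast cell markers set no gate. Lyz bands of the WKM library used neutrophil-gated cells. UMIs were summed per group (Python 3.11.15, scipy 1.17.1), with exact Poisson intervals for CPM, exact binomial intervals for log2 ratios and exact Clopper-Pearson intervals for shares, at 95%. In the smallest class compared, B cells, 3 UMIs correspond to 17.0 CPM. In mmp9-rich WKM cells 3 UMIs correspond to 23.7 CPM at 2 to 5% lyz, and to more in the smaller groups above that. Genes with at least 20 UMIs in a comparison formed the background. Sort gates came from source data of the study, used in part and for cell labels only. The ratio scripts were tested on simulated data. The rule named the members, the genes that set the groups, the reporters, the listed oxidase genes and the 3 nearest profiles of each member, and acp5a, cpa5 and marker genes were named beyond it. Members and lists were chosen with earlier results of these data known. Genome coordinates and sequences were not used here, and 1 listed oxidase gene is not reported here. The alternatives varied scaling, doublets, feature minimum, bands, gates, averaging and thinning, and those with UMIs per cell, lect2l, the WKM library for mmp9, hemoglobin left out of class totals and acp5a were chosen after seeing the data.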

Additional observations from a re-analysis of the deposited data

How the results depend on the processing

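No paired analysis was possible because cells were not assigned to fish here and each condition has 1 library, so that no replicate could be left out. Over all alternatives, 272 of the members' log2 ratios stayed within their counting interval and 186 moved outside it. Of the 272, 30 belong to the alternative with no minimum of counts, which cannot change a member's ratio. Another 26 that had differed from 0 beyond counting error changed sign, all of which follow. Between the lyz bands (under 2% over above 10%), the change to UMIs per cell turned cybb, cyba, ncf1 and ncf4 to -0.50, -1.09, -0.71 and -1.30 in the sorted library and to -0.52, -1.24, -0.62 and -1.29 in the WKM library. For mpx of the sorted library the ratio was 0.21 with at least 800 features and 0.20 with bands under 1% and above 15%, and in the WKM library it was 0.0020 with at least 1% lect2l. In the WKM library, median-of-ratios scaling gave -0.11 for cyba and -0.15 for ncf4, and all cells of a band, of any class, gave -0.28 for cybb, -0.84 for cyba, -0.95 for ncf1 and -0.81 for ncf4. For mmp9 in the lyz-poor band, ncf4 turned to 0.029 in the WKM library and 0.14 per cell, and mpx at 5 to 10% lyz to -0.044 per cell. For the sorted over the WKM library above 10% lyz, scaling turned cyba to -0.066 and ncf4 to -0.017. For HI over NO, UMIs per cell gave -0.44 for cybb, -0.85 for cyba, -0.35 for ncf1 and -0.62 for ncf4.

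The number of members at least 2-fold higher under 2% lyz in the sorted library, 2, was 1 with median-of-ratios scaling and 0 per cell, where 3 were 2-fold lower. In the WKM library the 1 member became 0 with lyz left out, with scaling, with at least 800 features, over all cells (1 lower) and per cell (3 lower). The number became 2 by the mean over cells, with bands under 1% and above 15% and with the lect2l minimum. In the main setting 23.3% of 9144 genes were higher and 5.7% were lower. Where no number of genes is given for an altered setting, its count of members is not to be read as a result about them. Per cell, 7476 of 10430 genes in the sorted library and 5261 of 9144 in the WKM library were at least 2-fold lower. With mmp9 in the lyz-poor sorted band, 2 members were 2-fold higher after scaling and 3 per cell, beside 1249 of 8974 genes per cell. Before scaling 6.11% of genes were higher. The number of members was 3 in the WKM library, beside 8.57% of 7612 genes, and 3 there with the lect2l minimum. In the WKM library 1 member, ncf1, was 2-fold higher at 2 to 5%, beside 10.6% of genes. There 1 member, ncf4, was lower at 5 to 10% and above 10%, beside 25.2% and 45% of genes. It rested on 6 UMIs in 17 cells with mmp9 and on 1 UMI in 3 cells, and both intervals included 0. Above 10% in the sorted library 1 member was lower after thinning, on 9 cells with mmp9, beside 4142 genes. For HI over NO 1 member was lower per cell, beside 4161 of 7945 genes. For neutrophils over B cells gated by 2 markers 2 were higher, where the main gate had 36.5% of 9931 genes higher. The genes at least 2-fold higher and lower between the lyz bands of the sorted library numbered 2914 and 1274, against 1650 and 1956 after scaling and 4871 and 2780 with no minimum of counts. In the WKM library they numbered 2134 and 521, against 1061 and 903 after scaling and 5689 and 1389 with no minimum. Leaving out cells with cpa5 or acp5a gave no value, since every WKM cell above 10% lyz had a UMI of one of them. Class gates of 2 or 4 markers moved the log2 ratio of neutrophils over erythroid cells to 1.63 and 4.86 for mpx, and that over HSPC to 2.68 and 6.31 for cybb. Precision was limited by depth for B cells and T or NK cells, and for mmp9-rich WKM cells above 2% lyz.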
